A study of Homo sapiens with 12 samples.

Results

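The matrix glycoproteins and matricellular proteins described here are 10 genes chosen by name, FN1, FBN1, TNC, POSTN, SPARC, THBS1, THBS2, CHI3L1, ANGPTL2 and PXDN. All 10 were found among the 43557 rows of the count table and all 10 were among the 23070 genes tested. Their poly(A)-selected RNA was sequenced in 12 libraries of 2 human bladder cancer cell lines. T24 comes from a poorly differentiated urothelial carcinoma and RT4 from a papillary bladder tumour. Each line has 3 libraries labelled shFTO, with FTO knockdown given as the treatment, and 3 labelled shNC, with no treatment given. FTO is an RNA demethylase that removes methyl groups from modified adenosines. The genotype entry is the same for all 4 groups. The sources used here do not give the hairpin sequence, the vector, or whether the cells were clones or pools.

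The extracellular matrix is the secreted protein network around cells. Fibronectin and fibrillin build its fibrils, whereas matricellular proteins such as tenascin C, periostin, SPARC and the thrombospondins bind these fibrils and cell receptors without forming the main scaffold. In tumours most of these proteins are known as products of stromal fibroblasts, and some carcinoma cells also make them. In RNA from a whole culture, fewer cells of a type and less RNA per cell cannot be told apart.

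Total counts ranged from 31291047 to 54553356 in the T24 libraries and from 38761639 to 102798895 in RT4. FTO was 35.4, 36.3 and 33.9 CPM, counts relative to library size scaled by the TMM method, in T24 shNC and 25.9, 26.3 and 24.2 CPM in T24 shFTO. It was 45.0, 46.9 and 46.6 CPM in RT4 shNC and 70.2, 71.3 and 65.2 CPM in RT4 shFTO. FTO was thus lower under the shFTO label in T24, at 72.4% of control (log2 change -0.46, SE 0.049, edgeR BH-adjusted p = 1.93e-07), and higher under that label in RT4, at 149% of control (0.58, SE 0.045, edgeR BH-adjusted p = 4.19e-09). Group names therefore follow the labels, and an RT4 direction is always that of the libraries labelled shFTO against those labelled shNC. Whether labels or lines were exchanged for some libraries was not tested, and each value given for a line or a label depends on it. Over 16200 genes, T24 shNC was closer to RT4 shFTO (mean Pearson r across genes 0.781) than to T24 shFTO (0.706), and RT4 shNC and RT4 shFTO stood at 0.761. The labelled tissue was also checked. The 18 urothelial markers summed to 1471 to 1544 CPM in T24 shNC and 424 to 434 in T24 shFTO. In RT4 they summed to 21.2 to 24.9 CPM for shNC and 185 to 194 for shFTO. At 10 CPM or more were 4 of the 18 in T24 shNC, 5 in T24 shFTO, 0 in RT4 shNC and 3 in RT4 shFTO. KRT7 alone had a mean of 1208 CPM in T24 shNC. The uroplakin genes UPK1B and UPK3A were at 1.30 and 0.91 CPM in T24 shFTO and had 0 counts in all other groups. UPK3B and UPK2 went the other way, with 7.51 and 1.23 CPM in T24 shNC and 0.086 and 0.045 CPM in T24 shFTO. The 24 hepatocyte markers summed to 31490 to 32747 CPM in T24 shFTO, where 20 of 24 stood at 10 CPM or more, and to between 2848 and 2927 CPM in T24 shNC, where 1 did. They summed to at most 46.4 CPM in RT4. The part of these markers in the results that follow was not tested.

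FN1 and THBS1 rose in both lines, PXDN fell in both, TNC and ANGPTL2 fell in T24 and rose in RT4, and the remaining 5 genes were called in 1 line each. In T24, 2 of the 10 rose under the shFTO label (FN1 and THBS1), 4 fell (TNC, FBN1, ANGPTL2 and PXDN), and 4 were not called (POSTN, SPARC, THBS2 and CHI3L1). Calls are at a Benjamini-Hochberg (BH) adjusted p under 0.05 in edgeR's quasi-likelihood test over all tested genes. Of all tested genes, 78% were called in T24, 37.2% up and 40.8% down. POSTN and CHI3L1 had 0 counts in all T24 libraries, and THBS2 had 1 count in T24 shNC and 3 in T24 shFTO. The share of the 10 that was called in T24 is therefore not read against this background. In RT4, 8 of the 10 rose, 1 fell (PXDN) and 1 was not called (FBN1), where 78.6% of all tested genes were called, 38.6% up and 40% down. The median absolute log2 change of the 10 genes was 3.50 in T24 and 5.19 in RT4, beside 1.06 and 1.04 for all tested genes. Their median signed log2 change was -0.43 in T24 and 4.48 in RT4, beside -0.05 and -0.0038 for all tested genes. The groups' values did not overlap for 6 of the 10 in T24, beside 79.6% of all tested genes, and for 9 of the 10 in RT4, beside 79.9%. Only RT4 shFTO libraries had the counts that carried POSTN and CHI3L1 past the filter on low values, so these genes had to differ from the other groups.

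**Figure D1:**
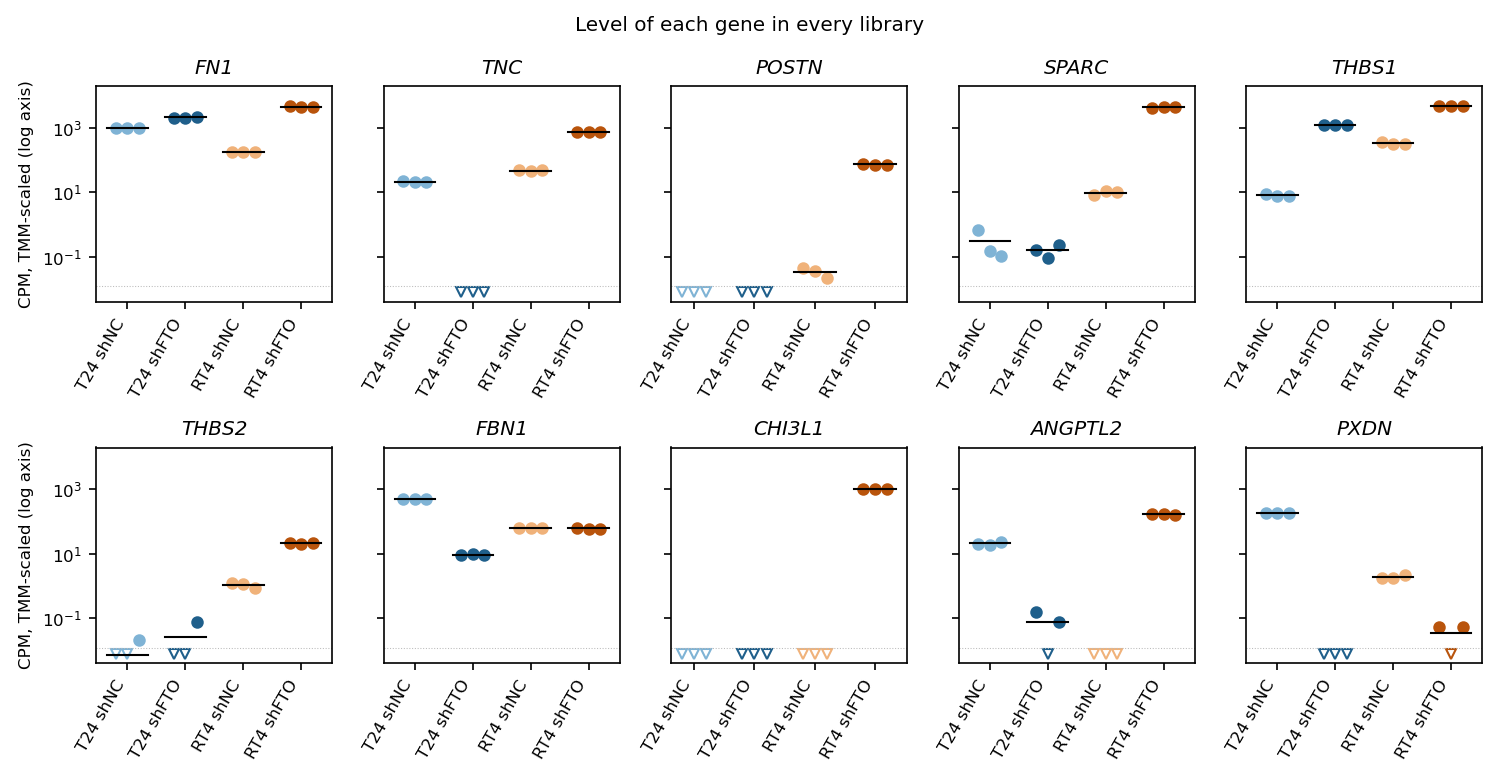
Level of each of the 10 genes in every library, in TMM-scaled CPM on a log axis; filled points are libraries, black lines are group means of 3 libraries, and open triangles under the dotted line are libraries with 0 counts. RT4 shFTO stands highest for 8 genes, and T24 shNC for FBN1 and PXDN.

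The promoters of 4 of the genes are shown here. POSTN and CHI3L1 both passed the filter on low values only through RT4 shFTO, so the filter itself made their patterns alike. THBS1 and THBS2 are paralogs whose patterns parted in T24. Each stretch is the 250 bases before the annotated start in RefSeq GRCh38.p14, read 5′ to 3′ on the gene's strand. The stretches are chr13:37598769-37599018 for POSTN, chr1:203186705-203186954 for CHI3L1 and chr6:169253847-169254096 for THBS2, all on the minus strand, and chr15:39580829-39581078 on the plus strand for THBS1. Capitals mark matches on either strand to 5 motifs: the AP-1 site TGANTCA, the TEAD site GGAATG, the CCAAT box, the TATA sequence TATAAA, and the CArG box, the site of serum response factor.
POSTN: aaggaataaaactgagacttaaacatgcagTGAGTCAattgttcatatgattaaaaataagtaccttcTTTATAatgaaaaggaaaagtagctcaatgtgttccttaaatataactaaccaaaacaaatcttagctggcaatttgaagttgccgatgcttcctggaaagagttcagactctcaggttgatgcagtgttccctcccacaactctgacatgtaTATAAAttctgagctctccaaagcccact
CHI3L1: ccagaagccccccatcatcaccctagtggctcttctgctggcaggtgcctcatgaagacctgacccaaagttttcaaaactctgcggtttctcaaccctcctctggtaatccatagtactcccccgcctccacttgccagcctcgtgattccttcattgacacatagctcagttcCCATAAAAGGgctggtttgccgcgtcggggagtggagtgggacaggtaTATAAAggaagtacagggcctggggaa
THBS1: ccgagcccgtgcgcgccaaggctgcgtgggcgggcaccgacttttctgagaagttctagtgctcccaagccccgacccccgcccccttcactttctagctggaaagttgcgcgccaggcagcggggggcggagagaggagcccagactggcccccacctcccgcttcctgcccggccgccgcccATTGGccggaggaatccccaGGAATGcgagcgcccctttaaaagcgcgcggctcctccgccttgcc
THBS2: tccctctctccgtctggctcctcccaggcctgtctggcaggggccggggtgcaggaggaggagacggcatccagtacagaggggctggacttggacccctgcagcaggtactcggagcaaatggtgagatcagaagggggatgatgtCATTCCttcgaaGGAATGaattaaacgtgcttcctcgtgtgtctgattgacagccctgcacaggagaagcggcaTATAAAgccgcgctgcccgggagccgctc
All 10 genes had a RefSeq promoter. The TATAAA match was found in CHI3L1, POSTN and THBS2, and in 10.7% of 35116 promoters of the same length. GGAATG was found in FBN1, SPARC, THBS1 and THBS2 (11.9% of promoters), CCAAT in FN1, PXDN and THBS1 (32%), the AP-1 site in POSTN (6.57%) and the CArG box in CHI3L1 (1.16%). No match overlapped that of another motif in the stretches shown, and the AP-1 and CArG letters read as matches on both strands. The ratio of observed to expected CpG was lowest in POSTN (0.12), CHI3L1 (0.33) and SPARC (0.34), and highest in FN1 (0.88), PXDN (0.84) and FBN1 (0.83), where the median promoter had 0.56. These matches describe the letters in the window only.

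FN1 encodes fibronectin, the adhesive glycoprotein that integrins bind and assemble into fibrils (chr2:215360865-215436068, minus strand, RefSeq GRCh38.p14, as for all gene positions). FN1 was 968, 1004 and 996 CPM in T24 shNC and 2072, 2103 and 2182 CPM in T24 shFTO. It was 174, 176 and 178 CPM in RT4 shNC and 4687, 4532 and 4444 CPM in RT4 shFTO. All shFTO libraries stood above all shNC libraries in both lines, and no groups overlapped. In T24 FN1 rose 2.14-fold, by 1.10 on the log2 scale (edgeR BH-adjusted p = 3.10e-15, SE 0.030), with 1.10, 1.07 and 1.13 within batches 1, 2 and 3. In RT4 the rise was 25.9-fold, or 4.70 on the log2 scale (edgeR BH-adjusted p = 6.10e-22, SE 0.035), with 4.75, 4.69 and 4.65 within batches. FN1 was the gene of the 10 with the smallest called fold in T24.

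FBN1 encodes fibrillin 1, the main protein of the microfibrils that carry elastin and hold latent TGF-beta complexes (chr15:48408313-48645709, minus strand). FBN1 was 488, 508 and 504 CPM in T24 shNC and 9.37, 9.79 and 9.04 CPM in T24 shFTO. Levels in RT4 were 63.2, 62.0 and 62.1 CPM for shNC and 64.2, 60.7 and 60.8 CPM for shFTO. The T24 groups were far apart and the RT4 groups overlapped. FBN1 was 53.2-fold lower in T24 shFTO, a log2 change of -5.74 (edgeR BH-adjusted p = 1.51e-21, SE 0.043), with -5.70, -5.70 and -5.80 within batches. In RT4 the change was -0.01 on that scale (edgeR BH-adjusted p = 0.776, SE 0.035), with 0.024, -0.031 and -0.031 within batches. This value turned to 0.020 with RLE scaling. It was called at -0.12 with upper-quartile scaling (edgeR BH-adjusted p = 0.0073) and at -0.28 with library totals only (edgeR BH-adjusted p = 3.43e-06), which shift the median of all genes in RT4 by -0.11 and -0.27. Relative to these shifts it was -0.014 and -0.015.

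TNC encodes tenascin C, a large glycoprotein that weakens cell adhesion to fibronectin (chr9:115019575-115118157, minus strand). TNC was 22.5, 20.8 and 21.0 CPM in T24 shNC and 0 counts in all 3 T24 shFTO libraries. It was 47.7, 44.4 and 47.7 CPM in RT4 shNC and 767, 754 and 764 CPM in RT4 shFTO. The gene thus went in opposite directions under the shFTO label, with no overlap in either line. In T24 it was at least 879-fold lower, with 3 counts set over the group at 0 (edgeR BH-adjusted p = 2.07e-17). In RT4 it was 16.3-fold higher (log2 change 4.03, SE 0.042, edgeR BH-adjusted p = 1.53e-18), and 4.006, 4.087 and 4.003 within batches.

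POSTN encodes periostin, which binds collagen and integrins and is known from bone, tendon and wound stroma (chr13:37562585-37598768, minus strand). POSTN had 0 counts in all 6 T24 libraries, which allows up to 0.026 CPM in shNC and 0.0244 CPM in shFTO. RT4 shNC libraries held 2, 4 and 2 counts, and RT4 shFTO libraries held 2788, 2559 and 2769 counts, or 74.7, 72.4 and 72.3 CPM. POSTN thus reached 1 CPM in RT4 shFTO alone. The RT4 ratio was 2100-fold (95% counting interval 1130 to 5164, edgeR BH-adjusted p = 5.23e-16).

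SPARC encodes a calcium-binding protein that binds collagens and modulates cell spreading (chr5:151661096-151686915, minus strand). SPARC had 24, 5 and 5 counts in T24 shNC and 8, 3 and 9 counts in T24 shFTO, all under 1 CPM. It was 8.54, 10.6 and 10.05 CPM in RT4 shNC and 4222, 4411 and 4344 CPM in RT4 shFTO. The T24 groups overlapped, and T24 shNC replicate 1 stood above the other 5 T24 libraries. The T24 log2 change was -0.85 (edgeR BH-adjusted p = 0.324), and without that replicate it was 0.37 (edgeR BH-adjusted p = 0.540). In RT4 SPARC was 444-fold higher (log2 change 8.78, SE 0.164, edgeR BH-adjusted p = 1.24e-11), with 8.95, 8.70 and 8.76 within batches. Of the overlapping antisense transcript CLMAT3, 0 to 7 counts were found in the T24 libraries and 10 to 35 in RT4. Whether counting used strand is unknown, so reads of overlapping genes may not have been told apart.

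THBS1 encodes thrombospondin 1, an inhibitor of blood vessel growth that also activates latent TGF-beta (chr15:39581079-39599466, plus strand). THBS1 was 8.68, 7.74 and 7.62 CPM in T24 shNC and 1211, 1229 and 1228 CPM in T24 shFTO. In RT4 it was 358, 321 and 325 CPM for shNC and 4911, 4816 and 4876 CPM for shFTO. Both lines had all shFTO libraries above all shNC libraries. THBS1 rose 153-fold in T24 (log2 change 7.26, SE 0.056, edgeR BH-adjusted p = 1.54e-21) and 14.6-fold in RT4 (3.86, SE 0.045, edgeR BH-adjusted p = 8.05e-20). Within batches the log2 change was 7.12, 7.31 and 7.33 in T24 and 3.78, 3.91 and 3.91 in RT4. FSIP1, which overlaps THBS1 on the opposite strand, held 12 to 23 counts in the T24 libraries and 15 to 251 in RT4.

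THBS2 encodes thrombospondin 2, a close relative that lacks the sequence by which thrombospondin 1 activates TGF-beta (chr6:169215785-169253846, minus strand). THBS2 had 0, 0 and 1 counts in T24 shNC and 0, 0 and 3 in T24 shFTO. It was 1.26, 1.19 and 0.872 CPM in RT4 shNC and 21.1, 19.9 and 22.4 CPM in RT4 shFTO. Both T24 groups were at or under the floor of 3 counts, so no fold is given (edgeR BH-adjusted p = 0.390), while the RT4 groups did not overlap. The RT4 rise was 19.1-fold (log2 change 4.27, SE 0.218, edgeR BH-adjusted p = 1.38e-11), with 4.06, 4.07 and 4.69 within batches. In T24, then, THBS1 was called up from a low level and THBS2 was at the limit of detection under both labels.

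CHI3L1 encodes a secreted chitinase-like glycoprotein without chitinase activity, for which IL13RA2 is a reported receptor (chr1:203178931-203186704, minus strand). CHI3L1 had 0 counts in 9 libraries, those of T24 shNC, T24 shFTO and RT4 shNC. The RT4 shFTO libraries had 1033, 1006 and 1043 CPM. The gene was at least 83438-fold higher in RT4 shFTO than in RT4 shNC, with 3 counts set over the group at 0 (edgeR BH-adjusted p = 9.35e-17).

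ANGPTL2 encodes a secreted angiopoietin-like protein that acts in inflammation and vessel growth (chr9:127087348-127122635, minus strand). ANGPTL2 was 20.9, 19.5 and 22.5 CPM in T24 shNC and 0.156, 0 and 0.0768 CPM in T24 shFTO. It had 0 counts in the 3 RT4 shNC libraries and 169, 174 and 164 CPM in RT4 shFTO. As for TNC, the direction was opposite in the lines, with no overlap in either. ANGPTL2 was 269-fold lower in T24 shFTO (95% counting interval 132 to 473, edgeR BH-adjusted p = 1.05e-13), where 11 counts remained over the group. It was at least 13723-fold higher in RT4 shFTO (edgeR BH-adjusted p = 1.02e-16). RALGPS1 lies over ANGPTL2 on the opposite strand and had 265 to 666 counts in the T24 libraries and 215 to 859 in RT4, with 335 to 859 in the RT4 shNC libraries where ANGPTL2 had 0.

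PXDN encodes peroxidasin, a haem peroxidase that crosslinks collagen IV in basement membranes (chr2:1631887-1744901, minus strand). PXDN was 191, 185 and 191 CPM in T24 shNC and 0 counts in all 3 T24 shFTO libraries. It was 1.81, 1.82 and 2.23 CPM in RT4 shNC, and the RT4 shFTO libraries held 2, 0 and 2 counts. The shFTO libraries were below the shNC libraries in both lines. PXDN was at least 7737-fold lower in T24 shFTO (edgeR BH-adjusted p = 2.91e-18) and 55.4-fold lower in RT4 shFTO (95% counting interval 21.2 to 201.3, edgeR BH-adjusted p = 1.85e-10). It was the one gene of the 10 to fall in both.

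**Figure D2:**
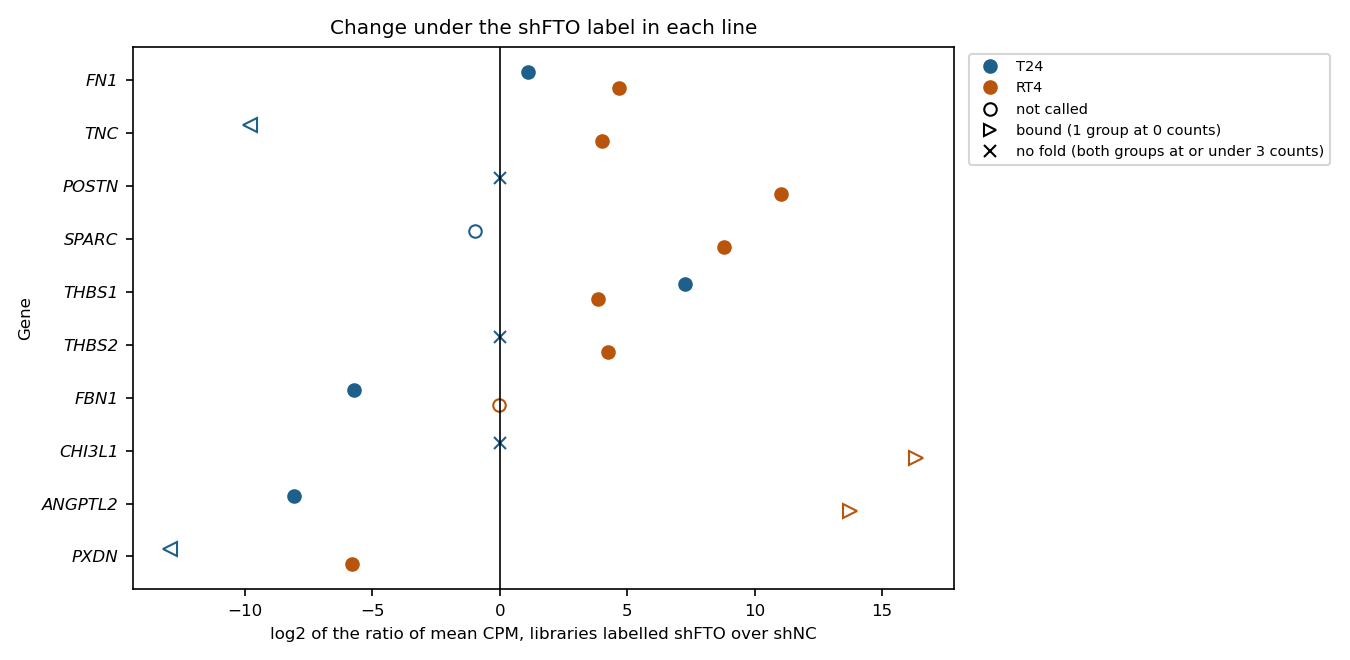
Ratio of mean CPM of libraries labelled shFTO to those labelled shNC, on a log2 axis, for each gene in T24 (blue) and RT4 (orange), n = 3 libraries a group. Open triangles are bounds where 1 group had 0 counts, open circles were not called, and crosses at 0 mark genes with no fold; TNC and ANGPTL2 lie on opposite sides of 0 in the lines, and PXDN lies below 0 in both.

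The changes themselves were compared between the lines with an interaction contrast (T24 minus RT4), in which 7 of the 10 genes were called, 1 higher (THBS1) and 6 lower in T24 (FN1, TNC, SPARC, FBN1, ANGPTL2 and PXDN). Of all tested genes 75% were called in this contrast, 36.3% higher and 38.7% lower. The log2 change in THBS1 was larger in T24, with a difference of 3.39 (edgeR BH-adjusted p = 2.56e-17, SE 0.065), and that in FN1 was smaller there, with -3.60 (edgeR BH-adjusted p = 8.48e-20, SE 0.043). For FBN1 the difference was -5.72 (edgeR BH-adjusted p = 5.71e-21, SE 0.055). PXDN had 0 counts in T24 shFTO and 4 in RT4 shFTO, so its difference also holds that of the shNC levels. POSTN, THBS2 and CHI3L1 were not called by edgeR (BH-adjusted p of 1.00, 0.223 and 1.00). DESeq2 called POSTN (adjusted p = 2.42e-10) and CHI3L1 (adjusted p = 8.74e-20), and limma-voom called all 3 with adjusted p of 2.50e-10, 0.00068 and 4.29e-12. Both T24 groups had 0 counts for POSTN and CHI3L1, so the contrast has no T24 change to compare.

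The contrasts between the lines share libraries with those above, and their values stand side by side with them. Between the controls, 4 of the 10 genes were higher in T24 shNC and 5 lower than in RT4 shNC, with CHI3L1 at 0 counts in both. Of all tested genes 80.1% were called here, 40.3% higher and 39.7% lower. Values did not overlap for 9 of the 10, beside 81.7% of all tested genes. PXDN was 96.6-fold higher in T24 shNC (edgeR BH-adjusted p = 4.41e-18), FBN1 8.01-fold (edgeR BH-adjusted p = 1.07e-19), FN1 5.63-fold (edgeR BH-adjusted p = 2.05e-19), and ANGPTL2 at least 1701-fold (edgeR BH-adjusted p = 1.15e-14). The matricellular genes were lower, THBS1 by 41.7-fold (edgeR BH-adjusted p = 1.13e-20), SPARC by 31.1-fold (edgeR BH-adjusted p = 1.15e-07) and TNC by 2.17-fold (edgeR BH-adjusted p = 2.97e-12). THBS2 had 1 count in T24 shNC. Its ratio of summed counts over library size put RT4 shNC 125-fold higher, with a counting interval from 22.2 to 4957 (edgeR BH-adjusted p = 1.42e-08). POSTN, with 0 counts against 8, was called at an edgeR BH-adjusted p of 0.0168, and that call was lost without T24 shNC replicate 3 (0.0582).

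Among the libraries labelled shFTO, all 10 genes were lower in T24 than in RT4, beside 77.5% of all tested genes called, 37.8% higher and 39.7% lower. Values did not overlap for 9 of the 10, beside 78.9%. THBS1 was 3.98-fold lower (edgeR BH-adjusted p = 7.77e-17), FN1 2.15-fold (edgeR BH-adjusted p = 2.41e-15) and FBN1 6.58-fold (edgeR BH-adjusted p = 1.46e-18). Where T24 shFTO had 0 counts, TNC was at least 31221-fold lower, POSTN at least 2998-fold and CHI3L1 at least 42093-fold. POSTN and CHI3L1 passed the filter only through RT4 shFTO, so both had to be lower here, and the count of 10 includes them. The PXDN call rests on 4 counts in RT4 shFTO (edgeR BH-adjusted p = 0.0236). It was lost without RT4 shFTO replicate 1 (0.0687) or 3 (0.0675) and without T24 shFTO replicate 1 (0.0613).

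Ranked by mean level, 8 of the 10 genes were highest in RT4 shFTO and 2 in T24 shNC (FBN1 and PXDN). FN1 fell in the order RT4 shFTO, T24 shFTO, T24 shNC, RT4 shNC, and THBS1 in the order RT4 shFTO, T24 shFTO, RT4 shNC, T24 shNC. The crosswise contrasts used here called 2 of the 10 genes higher and 8 lower in T24 shNC than in RT4 shFTO. Of all tested genes 76% were called, 39.4% higher and 36.6% lower. The 8 genes include POSTN and CHI3L1, which passed the filter only through RT4 shFTO and so had to be highest there. In T24 shFTO against RT4 shNC, 3 were higher, 6 lower and 1 not called, beside 80.1% called, 37.4% higher and 42.8% lower. Values did not overlap for 10 of 10 and 8 of 10 genes, beside 78% and 81.4% of all tested genes. For FN1, TNC and THBS1 the order had each neighbour called with no overlap of values. Over the 10 genes, 24 of 30 neighbouring pairs of groups were called. The 6 that were not called were the T24 groups for POSTN, SPARC and THBS2, the RT4 groups for FBN1, and the 2 pairs among the 3 groups without CHI3L1. ANGPTL2 in T24 shFTO against RT4 shNC (edgeR BH-adjusted p = 0.0011) and PXDN in RT4 shFTO against T24 shFTO were called although their values overlapped at 0.

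The number of genes that reached a set level also differed by group. At a mean of 10 CPM or more were 5 genes in T24 shNC (FN1, TNC, FBN1, ANGPTL2 and PXDN), 2 in T24 shFTO (FN1 and THBS1), 4 in RT4 shNC (FN1, TNC, THBS1 and FBN1) and 9 in RT4 shFTO, all but PXDN. Just under this level were SPARC in RT4 shNC (9.74 CPM), FBN1 in T24 shFTO (9.40 CPM) and THBS1 in T24 shNC (8.01 CPM). FN1 alone was at a mean of 10 CPM or more in every group. Summed over the 10, levels were 1700 to 1746 CPM in T24 shNC, 3293 to 3419 in T24 shFTO, 617 to 654 in RT4 shNC and 15791 to 15950 in RT4 shFTO. To compare the genes with each other, CPM was divided by the length of all exons of a gene in a GENCODE annotation of GRCh38. The annotation used in the counting is not given, so these shares are approximate. On this per-kilobase scale FN1 made up 50.3% of the 10 in T24 shNC, followed by FBN1 with 27.4% and PXDN with 14.8%. THBS1 (52.0%) and FN1 (47.7%) made up nearly all of it in T24 shFTO. Their order there depends on the lengths used, 9158 bases for THBS1 and 17315 for FN1. In CPM FN1 was the higher (2119 against 1222). RT4 shNC was led by THBS1 (63.2%) and FN1 (17.6%), and RT4 shFTO by SPARC (42.0%), THBS1 (24.9%), CHI3L1 (14.1%) and FN1 (12.3%).

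**Figure D3:**
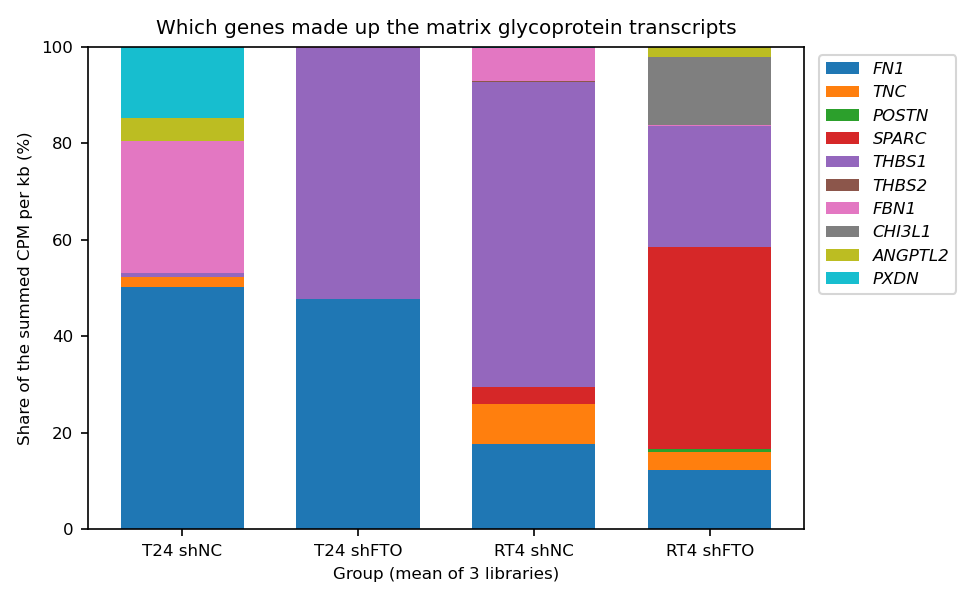
Share of each gene in the summed CPM per kilobase of the 10 genes, in percent, from group means of 3 libraries. On this scale FN1 leads in T24 shNC, THBS1 in T24 shFTO and RT4 shNC, and SPARC in RT4 shFTO. In CPM FN1 stands above THBS1 in T24 shFTO.

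Markers of the cell types that usually make these proteins differed between the groups. The 15 fibroblast markers summed to 10826 to 11194 CPM in RT4 shFTO and to 3182 to 3470 CPM in RT4 shNC, with 10 and 1 of 15 at 10 CPM or more. In T24 they summed to 530 to 565 CPM for shFTO and 1466 to 1523 CPM for shNC, with 3 and 4 of 15 at that level. Of the 15, 11 rose and 4 fell in RT4 (median log2 change 10.46), and 6 rose and 7 fell in T24 (median 0.93). COL1A2, a chain of type I collagen, led in RT4 shFTO with 6499 ± 147 CPM (SD, n = 3), whereas VIM, the intermediate filament of mesenchymal cells, was 37.6 ± 0.527 CPM there and 3313 ± 144 CPM in RT4 shNC. At 0 counts were COL1A2, PDGFRA and PRRX1 in T24 shNC, THY1 and TWIST1 in T24 shFTO, PDGFRA and LUM in RT4 shNC, and none in RT4 shFTO. The 10 smooth muscle and pericyte markers summed to 192 to 199 CPM in T24 shNC and to at most 24.5 CPM in the other groups. In T24 shNC, 3 of the 10 stood at 10 CPM or more. CSPG4 (109.5 CPM) and MYOCD (62.3 CPM) led there, while DES and MYH11 were at 3.27 and 1.28 CPM. Endothelial markers summed to at most 67.1 CPM and leukocyte markers to at most 58.8 CPM in any library. Their part in the results on the 10 genes was not tested.

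Other genes of the matrix were counted from 6 lists, read beside the shares of all tested genes given above. Of 14 tested paralogs of the 10 genes, 5 rose and 5 fell in T24 (median log2 change -0.55), and 7 rose and 4 fell in RT4 (median 1.41). The fibrillin FBN2 changed by -4.44 in T24, from 888 to 41.0 CPM, while FBN3 rose from 0.438 to 122 CPM. ANGPTL8, a liver-secreted relative of ANGPTL2, rose from 0.0099 to 76.7 CPM in T24, and ANGPTL4 rose by 3.26 in RT4. THBS3 changed by -3.48 in RT4. TNXB went by -6.98 in T24 and 6.43 in RT4, values that are uncertain because the pseudogene TNXA is a near copy. TGFBI, which has fasciclin domains as periostin does, rose in both lines, by 1.71 in T24 and 6.85 in RT4. Of 31 other matrix glycoproteins, 8 rose and 20 fell in T24 (median -0.75), and 19 rose and 9 fell in RT4 (median 1.18). Nidogen 1 (NID1), a linker of basement membranes, rose by 3.08 in T24 and 3.64 in RT4. EFEMP1, a fibulin, rose from 1.04 to 1006 CPM in RT4, and the fibulin FBLN1 changed by -5.24 there. SPON2 rose in both lines, by 5.25 and 5.18, and in T24 CCN2, a matricellular growth factor, rose by 1.63 and ECM1 changed by -4.68.

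Of 18 elastic fibre and microfibril partners, 6 rose and 9 fell in T24 (median -0.20), and 9 rose and 7 fell in RT4 (median 0.62). LTBP4, a latent TGF-beta binding protein, fell in both lines, by 6.39 and 2.79 on the log2 scale, whereas LTBP1 rose by 6.34 in RT4. LOX, the enzyme that crosslinks collagen and elastin, rose from 1.53 to 288 CPM in RT4. LOXL2, of the same enzyme family, changed by -4.97 in T24, where MFAP2, a microfibril protein, rose by 8.16 and LTBP3 by 2.28. In RT4, where FBN1 was not called, the crosslinking enzymes LOX and LOXL1 thus rose, LOXL1 by 5.25.

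Of 20 tested receptors of the 10 genes, 12 rose and 4 fell in T24 (median 0.64), and 14 rose and 3 fell in RT4 (median 1.64). ITGA5, the alpha chain of the main fibronectin receptor, fell by 1.27 in T24 and rose by 2.17 in RT4. ITGAV, which pairs with several beta chains to bind fibronectin and periostin, rose by 2.57 in T24, and LRP1, which clears thrombospondins, rose by 1.92 in RT4. Integrin chains also fell in T24, ITGA3 with a change of -6.88 and ITGB8 from 41.2 to 0.026 CPM, and in RT4 ITGB5 rose by 2.95 and EGFR by 2.48. Of 18 TGF-beta ligands and response genes, 12 rose and 6 fell in T24 (median 0.68), and 13 rose and 3 fell in RT4 (median 1.08). PMEPA1, a TGF-beta response gene, went from 73.0 CPM to 0 counts in T24, at least 2994-fold lower, and rose by 3.05 in RT4. Of TGF-beta receptors, TGFBR3 changed by -5.55 in T24 and TGFBR1 by 2.62 in RT4. Of 14 secretory and matrix processing factors, 5 rose and 6 fell in T24 (median -0.08), and 13 rose and 1 fell in RT4 (median 1.22). PLOD2, a collagen lysyl hydroxylase, fell by 1.03 in T24 and rose by 3.87 in RT4, and the collagen chaperone SERPINH1 rose by 3.01 in RT4. P4HB, the disulphide isomerase that is also a subunit of prolyl hydroxylase, rose by 3.06 in RT4, and FAM20C, a kinase of secreted proteins, went from 0.023 to 249.9 CPM. Smaller changes in T24 were those of BMP1 (-1.39), which cleaves procollagens, of the crosslinking enzyme TGM2 (-1.32) and of the vesicle coat gene SEC24D (1.00). Each gene given here for a list was called in that line, with edgeR BH-adjusted p of at most 1.64e-12 (SEC24D).

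**Figure D4:**
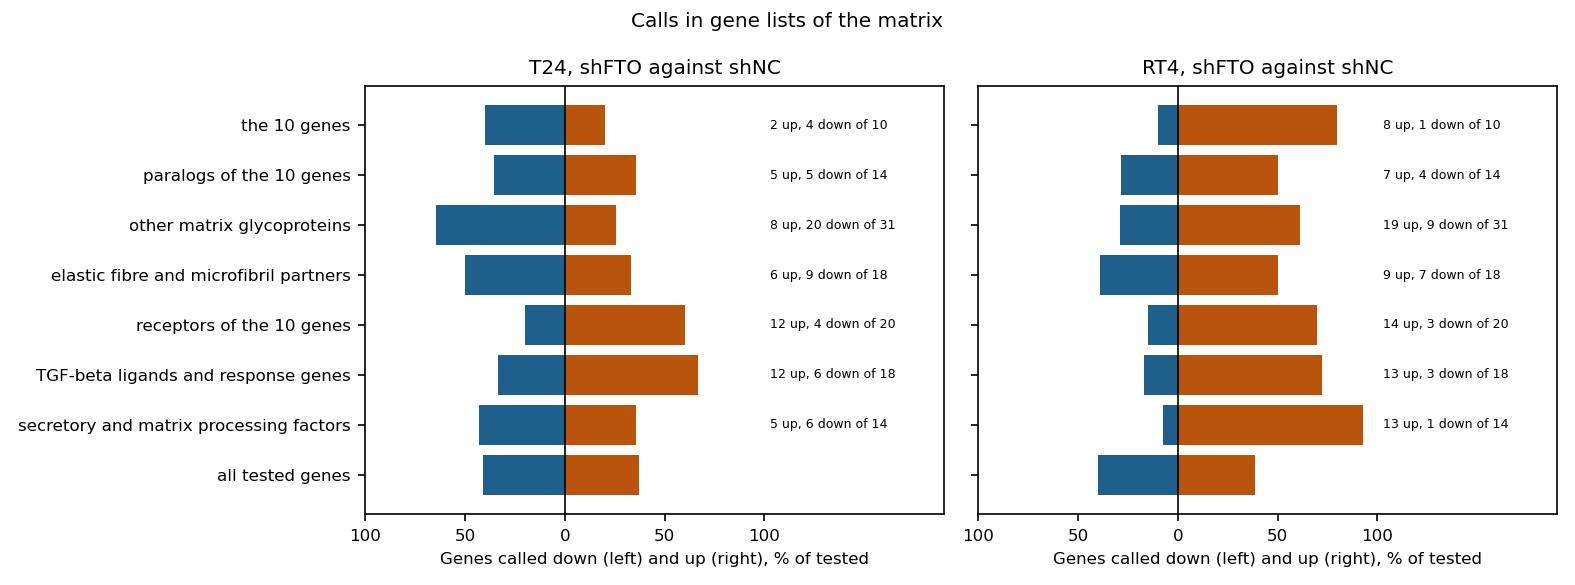
Percent of the tested genes of each list called down (left of 0) and up (right of 0) in T24 and RT4, with counts beside the bars and all 23070 tested genes in the lowest bar. In RT4, 13 of 14 secretory and matrix processing factors and 8 of the 10 genes lie to the right; in T24, 20 of 31 other matrix glycoproteins lie to the left.

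The genes with the most alike pattern were sought for each of the 10 among all tested genes whose mean reached 1 CPM, by the root mean square difference of centred log2 CPM over the 12 libraries. FN1 lay closest to PC, the gene of pyruvate carboxylase (0.23), and FBN1 to NR4A3, a nuclear receptor gene (0.26), and SLC16A5 (0.27). FN1 was next to SLC22A23 (0.29). POSTN lay closest to PDE1C (0.34) and FPR2 (0.35), and PXDN to KIF26A (0.55) and MYPN (0.80). THBS2 was nearest to PCBP3 (0.64) and ARMCX1 (0.65). For the remaining genes the nearest pattern was less alike. THBS1 was 0.72 from ZNF608 and 0.83 from MMP14, a membrane-bound matrix metalloproteinase, and ANGPTL2 was 0.72 from COL1A1 and 0.73 from SULF2. SPARC was 0.84 from IL13RA2 and 1.39 from VCAN, CHI3L1 was 0.81 from COL6A3, its second nearest gene, and TNC was 0.91 from GAS6 and 0.95 from KCTD12. Of pairs among the 10, POSTN and CHI3L1 were closest (1.82), followed by POSTN and THBS2 (2.09) and POSTN and SPARC (2.11). Because POSTN and CHI3L1 passed the filter only through RT4 shFTO, their likeness is not read as a result. These values describe 12 libraries that fall into 4 groups, so they reflect mainly the group means.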

How the data were processed

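Poly(A)-selected RNA from 12 libraries was sequenced as paired reads of 150 bases, per the labels' protocols. The authors deposited 1 table of raw counts per gene. Per the submitters' processing notes, fastp 0.20.0, STAR 2.7.9a and featureCounts 2.0 were used. Genome builds mm39, GRCh38 and hg38 are named there with no role, and the sources used here give neither strand setting nor annotation. Library totals ranged from 31291047 to 102798895, and nothing in the labels states that replicates were separate cultures, so the p-values speak of the variation among these libraries, which may be technical.

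From the counts, genes were filtered with filterByExpr by group and scaled with TMM. One robust quasi-likelihood fit in edgeR 4.0.16 (R 4.3.3) over 12 libraries and 4 groups gave all contrasts, with 8 residual degrees of freedom and a common biological coefficient of variation of 0.077. P-values were BH-adjusted over 23070 genes and called under 0.05. Log2 changes are fitted values with a prior count of 0.125. An SE, the log2 change over the root of its F statistic, is given where each group held at least 100 counts. Folds are ratios of mean CPM, or of summed counts over summed scaled library sizes where a group held 1 to 3 counts. A group at 0 counts was set to 3 counts over the group, and for groups with few counts a 95% counting interval of the ratio of summed counts is given. Intervals and bounds cover counting error only. Markers, lists and overlapping genes were matched by symbol. The scripts were checked on simulated counts with known changes. Of 183 genes called there in T24, 2.73% were unchanged, below the call threshold, and of 199 in RT4, 8.54%, above it. At a 1.5-fold change, 77.6% of the changed genes were recovered in T24 and 80.6% in RT4. The simulation changed far fewer genes than were called in the data and gave all genes the same spread. It therefore does not measure the error among the calls made here.

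The 10 genes and the lists were chosen with earlier results of these data known. All 10 genes and FTO are named, with the 2 nearest genes for each. From each matrix list up to 4 genes are named, with the smallest p in a line and a mean of at least 1 CPM. Cell type markers were not named by this rule, and those named singly were chosen after their values were seen. The gene nearest to CHI3L1 and 1 gene of a list are not reported here. The promoters printed were chosen after the values were seen. The labels carry a batch number equal to the replicate number, by which libraries were matched here for the changes within batches. Residuals of same-numbered libraries correlated at 0.101, -0.036 and 0.019 in T24 and at -0.098, -0.022 and -0.020 in RT4 over 10876 genes. Replicates differed by more than sampling noise (chi-squared per degree of freedom 5.47 to 16.3). Alternatives were RLE, upper-quartile and library-total scaling, 2 other filters, DESeq2 1.42.0, limma-voom (limma 3.58.1), a batch block, a fold threshold of 2, only the groups compared, and each library left out. Library-total scaling was added after the data were seen.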

Additional observations from a re-analysis of the deposited data

Results flagged for a closer look

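For 7 of the 10 matrix genes, and for FTO, the change under the shFTO label differed between the lines in the test of that difference (edgeR interaction contrast, T24 minus RT4, BH-adjusted p under 0.05), beside 75% of all tested genes called. The log2 difference was 3.39 for THBS1, which rose more in T24, and -3.60 for FN1, which rose more in RT4. It was -5.72 for FBN1, which fell in T24 and was not called in RT4, and -9.63 for SPARC, which rose in RT4 and was not called in T24. TNC (-17.08) and ANGPTL2 (-23.86) fell in T24 and rose in RT4. For PXDN, which fell in both, it was -10.51. PXDN went from a mean of 189 CPM to 0 counts in T24 and from 1.95 CPM to 4 counts in RT4. The part of the shNC level in this difference was not tested. The fitted differences of TNC, ANGPTL2 and PXDN involve groups at 0 counts, depend on the prior count, and are not bounds. FTO itself differed by -1.04 (SE 0.067, edgeR BH-adjusted p = 2.75e-10), being lower under the label in T24 and higher in RT4.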

How the results depend on the processing

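Directions and calls of the 10 genes were recomputed under 22 alternatives. In T24, 2 genes up and 4 down were found under each, and in RT4 8 up under each. In the difference of the lines, which the fit of only the groups compared cannot give, 1 was higher under the other 21 and 6 to 9 lower, with 9 from limma-voom. Genes down in RT4 numbered 2 in place of 1 with upper-quartile scaling and with library totals only, because FBN1 was then called. FBN1 in RT4 changed sign to 0.020 with RLE scaling, 0.0076 with a filter of 1 CPM in 3 libraries, 0.022 with DESeq2 and 0.0011 without RT4 shFTO replicate 2, and leaving out libraries gave -0.042 to 0.0011. SPARC in T24 ranged from -1.35 to 0.37 when a library was left out, and the upper value is that without T24 shNC replicate 1. The causes of these changes were not tested. With the batch number as a block, pairing libraries within batches, 17671 genes were called in T24, 17733 in RT4, 16968 in the difference, 18092 between the controls and 17498 between the shFTO groups, and no call of the 10 genes changed. Tested against a 2-fold change with glmTreat, 9520 genes were called in T24, 9309 in RT4, 11086 in the difference, 9979 between the controls and 9786 between the shFTO groups. Against that threshold FTO was no longer called at -0.46 in T24, 0.58 in RT4, -1.04 for the difference and -0.39 between the controls, and PXDN between the shFTO groups had an adjusted p of 0.052. THBS2 was called in the difference of the lines without T24 shFTO replicate 3 (edgeR BH-adjusted p = 0.0287). Upper-quartile scaling shifted the median of all genes by -0.11 in both lines, and library totals by -0.18 in T24 and -0.27 in RT4. Depth limits POSTN, CHI3L1, SPARC and THBS2 in T24, where 0 to 34 counts a group were found.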
